A study of Homo sapiens with 8 samples.

Results

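Tight junctions seal the gaps between epithelial cells, and 9 of their genes are described here: the claudins CLDN1, CLDN3, CLDN4 and CLDN7, the MARVEL-domain proteins OCLN and MARVELD2, and the cytoplasmic scaffold proteins TJP1, TJP3 and CGN. They were taken by gene symbol from the deposited table, which lists 18164 genes. All 9 were found there, and all 9 passed the filter on low values (TPM of at least 1 in at least 4 of the 8 tumors) that left 13358 genes for testing. Each tumor grew from HCC1937, a long-established line of human triple-negative breast cancer, in the inguinal mammary fat pad of NCG mice (NOD/ShiLtJGpt-Prkdcem26Cd52Il2rgem26Cd22/Gpt), which lack T, B and NK cells. The NMN group (n = 4) received 500 mg/kg/day of nicotinamide mononucleotide, from which cells make NAD+, and the Vehicle group (n = 4) received the vehicle. The sources used here do not give the age of the mice, the length of treatment or the makeup of the vehicle. Nothing in the labels says that the tumors came from separate mice, so p-values reflect only how these 8 samples vary, which may be technical. Values are from 1 cell line, and RNA was from whole tumor tissue. NMN 4 was above the other NMN tumors in the summed skeletal muscle, fibroblast and pericyte or smooth muscle markers, whose values are given with the marker genes.

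Claudins span the membrane 4 times and polymerise into the strands of the junction, and the mix of claudins sets which ions pass between cells. Occludin (OCLN) lies in the same strands, and tricellulin (MARVELD2) sits where 3 cells meet. The zonula occludens proteins ZO-1 (TJP1) and ZO-3 (TJP3) bind the claudins' cytoplasmic tails, and cingulin (CGN) links that plaque to the cytoskeleton. In breast cancer the genes CLDN3, CLDN4 and CLDN7 have given their name to the claudin-low class, in which they are weakly expressed.

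The 4 claudins are shown first by the 250 bases before their starts, because CLDN3, CLDN4 and CLDN7 differed from CLDN1 in the direction of their group means and in which tumors were low. Sequences are those of RefSeq on GRCh38.p14, read along the strand of each gene. Capitals mark GGGCGG or its reverse complement CCGCCC (the GC box bound by Sp1), and CAGGTG or its reverse complement CACCTG (the E-box bound by ZEB and SNAI repressors). No E-box overlapped a GC box in these windows. CLDN4 lies on the plus strand at chr7:73830746-73830995, CLDN3 on the minus strand at chr7:73770271-73770520, CLDN7 on the minus strand at chr17:7262479-7262728 (the second of its 2 windows) and CLDN1 on the minus strand at chr3:190322447-190322696.
CLDN4: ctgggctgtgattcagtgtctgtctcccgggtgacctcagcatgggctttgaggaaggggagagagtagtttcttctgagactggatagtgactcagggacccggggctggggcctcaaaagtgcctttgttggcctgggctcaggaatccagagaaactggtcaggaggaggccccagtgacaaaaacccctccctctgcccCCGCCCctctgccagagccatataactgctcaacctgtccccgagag
CLDN3: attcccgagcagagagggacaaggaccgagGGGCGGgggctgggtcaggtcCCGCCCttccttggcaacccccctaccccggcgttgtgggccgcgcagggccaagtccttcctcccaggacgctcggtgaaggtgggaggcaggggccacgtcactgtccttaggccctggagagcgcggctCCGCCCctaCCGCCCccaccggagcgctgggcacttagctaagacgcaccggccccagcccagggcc
CLDN7: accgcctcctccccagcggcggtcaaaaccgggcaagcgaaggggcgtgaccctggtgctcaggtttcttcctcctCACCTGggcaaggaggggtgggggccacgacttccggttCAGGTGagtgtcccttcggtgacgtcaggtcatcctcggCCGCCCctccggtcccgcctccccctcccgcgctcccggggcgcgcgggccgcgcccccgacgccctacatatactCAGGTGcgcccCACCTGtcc
CLDN1: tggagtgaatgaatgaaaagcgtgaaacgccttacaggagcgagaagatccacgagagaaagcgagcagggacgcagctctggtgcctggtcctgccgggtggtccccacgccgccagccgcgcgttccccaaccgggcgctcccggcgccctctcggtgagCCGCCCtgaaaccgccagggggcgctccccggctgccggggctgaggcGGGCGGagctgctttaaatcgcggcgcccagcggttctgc

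In its second window CLDN7 held 4 E-boxes, starting 174, 135, 20 and 9 bases before the start, and the other 3 printed windows held 0. The first window of CLDN7, not printed, held 0 E-boxes and 0 GC boxes. Of the 15 windows of the 9 genes 5 held at least 1 E-box, in CLDN7, OCLN, TJP1 and TJP3. Of 35116 windows of the same length, 17.5% held at least 1 such E-box and 0.122% held at least 4. CLDN3 held 4 GC boxes, CLDN1 2, and CLDN4 and CLDN7 1 each. Of all windows 42.6% held at least 1 GC box, 24.3% at least 2 and 7.63% at least 4. The Grainyhead motif AACCGGTT was in 0.117% of all windows and in none of those 15. Such matches are letters in these windows and no measure of binding.

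By position (GENCODE 29, GRCh38), CLDN3 (chromosome 7, 73768997 to 73770270, minus strand) and CLDN4 (chromosome 7, 73799542 to 73832693, plus strand) are neighbours 29271 bases apart. That gap is between the annotated spans. The CLDN4 window printed above (73830746 to 73830995) lies inside the CLDN4 span, so the start used there is farther from CLDN3. MARVELD2 (chromosome 5, 69415065 to 69444330, plus strand) lies 47961 bases before OCLN (chromosome 5, 69492292 to 69558104, plus strand). CLDN7 is on chromosome 17 (7259903 to 7263983, minus strand), CLDN1 on chromosome 3 (190305701 to 190322475, minus strand) and CGN on chromosome 1 (151510510 to 151538692, plus strand). TJP1 is on chromosome 15 (29699367 to 29968865, minus strand) and TJP3 on chromosome 19 (3708109 to 3750813, plus strand). Part of the OCLN value is uncertain, because 8.93% of the 50-base words in its protein-coding transcripts also occur in other genes, most of them in the pseudogene OCLNP1. For CLDN7 that share was 9.31%, all of it with the annotated gene AC003688.1, and for the other 7 genes it was at most 1.8%. CLDN3 and CLDN4 shared 22 such words.

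The claudins were the most abundant of the 9 transcripts in every tumor, in the order CLDN1, CLDN4, CLDN7 and CLDN3. TPM is scaled by transcript length, so levels can be set side by side between genes. Over the 8 tumors the means were 347 TPM for CLDN1, 183 TPM for CLDN4, 73.4 TPM for CLDN7 and 54.8 TPM for CLDN3. TJP1 at 23.0 TPM and TJP3 at 20.1 TPM came next and exchanged places in NMN 3 and Vehicle 2. OCLN at 11.5 TPM, MARVELD2 at 8.35 TPM and CGN at 2.87 TPM held the last 3 places in each tumor. CLDN7 and CLDN3 were nearest to each other in Vehicle 3, at 79.43 and 77.92 TPM.

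**Figure D1:**
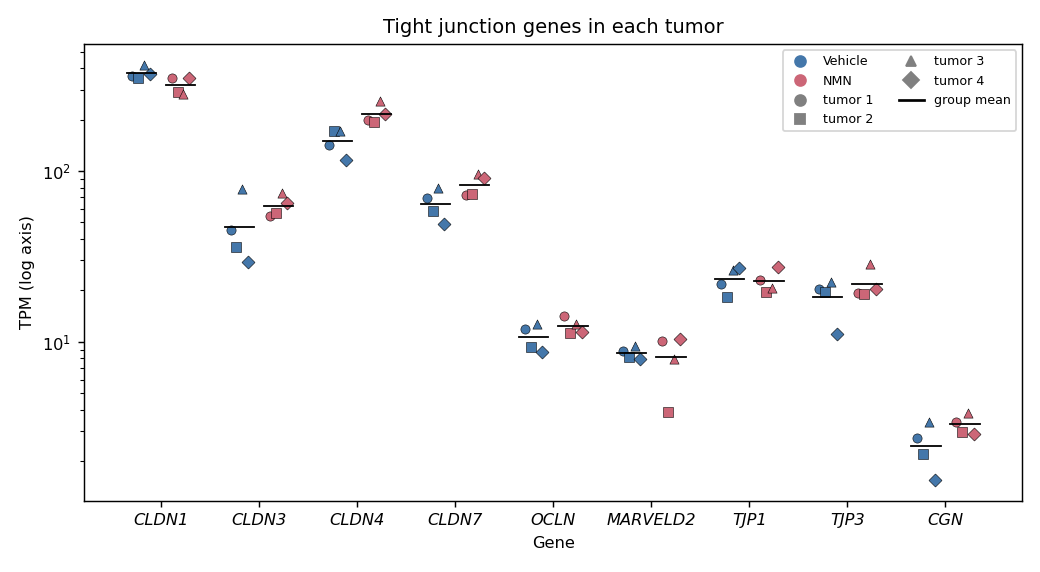
TPM (log axis) of the 9 genes in each tumor, with Vehicle in blue and NMN in red, a marker shape for each tumor number and a black line at each group mean. CLDN1 is highest in all 8 tumors and CGN lowest, and all 4 NMN values of CLDN4 lie above all 4 Vehicle values.

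None of the 9 genes passed the test between groups. The test was limma's moderated linear model on log2(TPM + 1) with Benjamini-Hochberg adjustment over all 13358 genes, of which 0 (0.0%) passed at adjusted p under 0.05 and 927 stood at an unadjusted p under 0.05. Of the 9 genes, 6 were higher in mean in NMN tumors, against 51.0% of all tested genes, and 3 were lower. Their median log2 fold change was 0.26, against 0.0040 over all tested genes. Without Vehicle 4 the median of the 9 was 0.13. At an unadjusted p under 0.05 stood 2 with the higher mean, CLDN4 and CLDN7 (4.79% of all tested genes), and 1 with the lower, CLDN1 (2.15% of all tested genes).

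CLDN4, a sealing claudin and a receptor for Clostridium perfringens enterotoxin, was at 197.85, 193.56, 255.26 and 214.98 TPM in NMN 1 to 4, against 142.16, 172.35, 171.74 and 116.44 TPM in Vehicle 1 to 4. Each of the 4 NMN tumors was above each Vehicle tumor, as they were in 2.08% of tested genes. The means were 215 ± 28.1 TPM in NMN tumors against 151 ± 26.8 TPM in Vehicle tumors (SD, n = 4), a log2 fold change of 0.52 ± 0.14 (SE) with a 95% interval from 0.22 to 0.83 and a limma adjusted p of 0.341. An exact permutation test (two-sided, on mean log2(TPM + 1)) gave p = 0.0286, the smallest that 4 tumors against 4 allow. With 1 tumor left out the log2 fold change of CLDN4 ran from 0.41 (without Vehicle 4) to 0.59 (without Vehicle 2).

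CLDN1, the claudin of the epidermal barrier, went the other way. It was at 351.12, 291.63, 283.08 and 348.82 TPM in NMN 1 to 4, against 361.22, 352.40, 418.89 and 369.06 TPM in Vehicle 1 to 4. Every NMN value was below every Vehicle value, as in 0.966% of tested genes, but NMN 1 and NMN 4 lay within a few TPM of Vehicle 2. The means were 319 ± 36.3 TPM and 375 ± 29.8 TPM (SD, n = 4), with a log2 fold change of -0.24 ± 0.10, a 95% interval from -0.46 to -0.01 and a limma adjusted p of 0.685. The exact permutation p was again 0.0286, which groups of 4 that do not overlap give by construction. For the other 7 genes it ran from 0.114 (CLDN7 and CGN) to 0.886 (TJP1).

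CLDN3, also an enterotoxin receptor, was at 54.29, 56.53, 74.01 and 65.01 TPM in NMN 1 to 4, against 45.10, 36.07, 77.92 and 29.32 TPM in Vehicle 1 to 4. Vehicle 3 was the highest of all 8 tumors and Vehicle 4 the lowest, so the groups overlapped. The log2 fold change of CLDN3 was 0.49 ± 0.24 (95% interval from -0.04 to 1.02, limma adjusted p = 0.771). Without Vehicle 4 the value for CLDN3 was 0.30, and without Vehicle 3 it was 0.76. CLDN7, which also lies along the basolateral membrane, was at 72.29, 73.38, 95.42 and 90.38 TPM in NMN 1 to 4, against 69.19, 58.23, 79.43 and 48.68 TPM in Vehicle 1 to 4. Only Vehicle 3 among the Vehicle tumors reached the NMN range of CLDN7. Its log2 fold change was 0.38 ± 0.15 (95% interval from 0.05 to 0.72, limma adjusted p = 0.629).

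The shares of CLDN1 and CLDN4 among the claudin transcripts are given as a description with no test. The 4 claudins made up between 91.3% and 93.1% of the summed TPM of the 23 claudin genes in the table. CLDN1 was 43.2% ± 4.41 of that sum in NMN tumors, from 37.0% to 47.5%, and 54.8% ± 3.88 in Vehicle tumors, from 52.2% to 60.5% (SD, n = 4). CLDN4 was 29.2% ± 2.99 in NMN tumors, from 26.8% to 33.4%, and 21.9% ± 2.88 in Vehicle tumors, from 19.1% to 25.9%. For neither gene did the shares of the groups overlap. The shares of CLDN7 (9.78% to 12.5% in NMN and 7.99% to 10.2% in Vehicle tumors) and of CLDN3 (7.34% to 9.68% and 4.81% to 9.70%) did overlap. The ratio of CLDN4 to CLDN1 was between 0.563 and 0.902 in NMN tumors and between 0.316 and 0.489 in Vehicle tumors. The TPM values of both genes already did not overlap, in opposite directions, so this ratio could not overlap. The shares of CLDN1 and CLDN4 are drawn from the same values and add no separate support. The summed claudin level, 738 ± 52.1 TPM in NMN tumors against 689 ± 81.8 TPM in Vehicle tumors, overlapped.

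**Figure D2:**
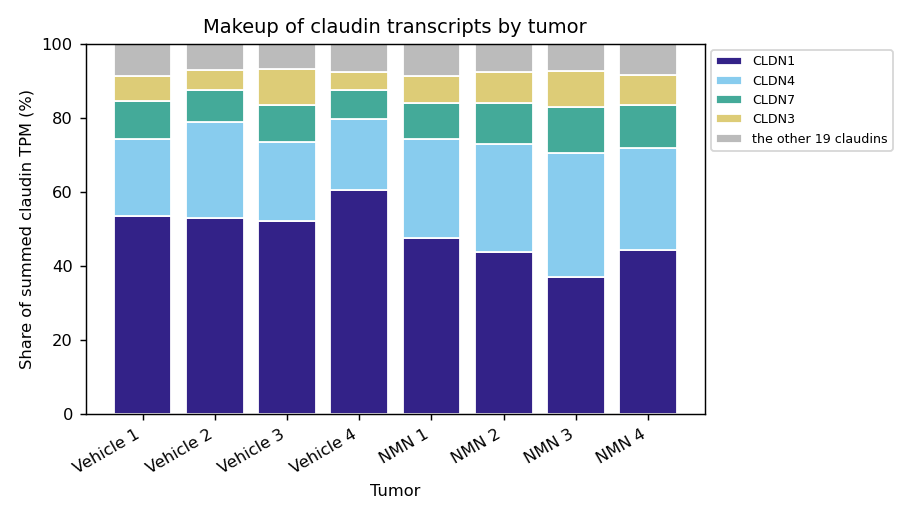
Stacked bars of the share (%) of summed claudin TPM taken by CLDN1, CLDN4, CLDN7, CLDN3 and the other 19 claudins in each tumor. The CLDN1 segment is at least 52.2% in Vehicle tumors and at most 47.5% in NMN tumors.

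Occludin was at 14.15, 11.19, 12.74 and 11.43 TPM in NMN 1 to 4, against 11.82, 9.33, 12.62 and 8.66 TPM in Vehicle 1 to 4, with overlapping groups. The log2 fold change of OCLN was 0.21 ± 0.15 (95% interval from -0.12 to 0.55, limma adjusted p = 0.896), and 0.13 without Vehicle 4. Tricellulin (MARVELD2) was at 10.13, 3.90, 7.94 and 10.38 TPM in NMN 1 to 4, against 8.83, 8.18, 9.50 and 7.90 TPM in Vehicle 1 to 4. NMN 2 stood below all other tumors. The log2 fold change of MARVELD2 was -0.15 ± 0.24 (95% interval from -0.68 to 0.38, limma adjusted p = 0.959), and without NMN 2 it was 0.12, so that 1 tumor set its sign. NMN 2 was the lowest of the 8 tumors in 26.1% of all tested genes.

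Among the scaffolds, ZO-1 (TJP1) was at 23.15, 19.43, 20.78 and 27.25 TPM in NMN 1 to 4, against 21.82, 18.26, 26.29 and 27.01 TPM in Vehicle 1 to 4. The groups covered nearly the same range, and the log2 fold change of TJP1 was -0.037 ± 0.15 (95% interval from -0.37 to 0.30, limma adjusted p = 0.990). Its sign turned without NMN 2, Vehicle 3 or Vehicle 4, to 0.030, 0.024 and 0.036. ZO-3 (TJP3), found in epithelia, was at 19.37, 19.13, 28.39 and 20.40 TPM in NMN 1 to 4, against 20.30, 19.65, 22.39 and 11.10 TPM in Vehicle 1 to 4. NMN 3 stood high and Vehicle 4 low, and the other 6 tumors were close together. The log2 fold change of TJP3 was 0.26 ± 0.21 (95% interval from -0.19 to 0.72, limma adjusted p = 0.916), which was 0.051 without Vehicle 4 and 0.13 without NMN 3.

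Cingulin (CGN) was at 3.40, 2.98, 3.85 and 2.88 TPM in NMN 1 to 4, against 2.73, 2.2, 3.39 and 1.55 TPM in Vehicle 1 to 4. Vehicle 3 lay among the NMN tumors and the other 3 Vehicle tumors below them. The log2 fold change of CGN was 0.33 ± 0.19 (95% interval from -0.09 to 0.74, limma adjusted p = 0.836), and 0.19 without Vehicle 4. At so low a level the added 1 TPM makes this value smaller than the ratio of the means, 1.33, would give.

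**Figure D3:**
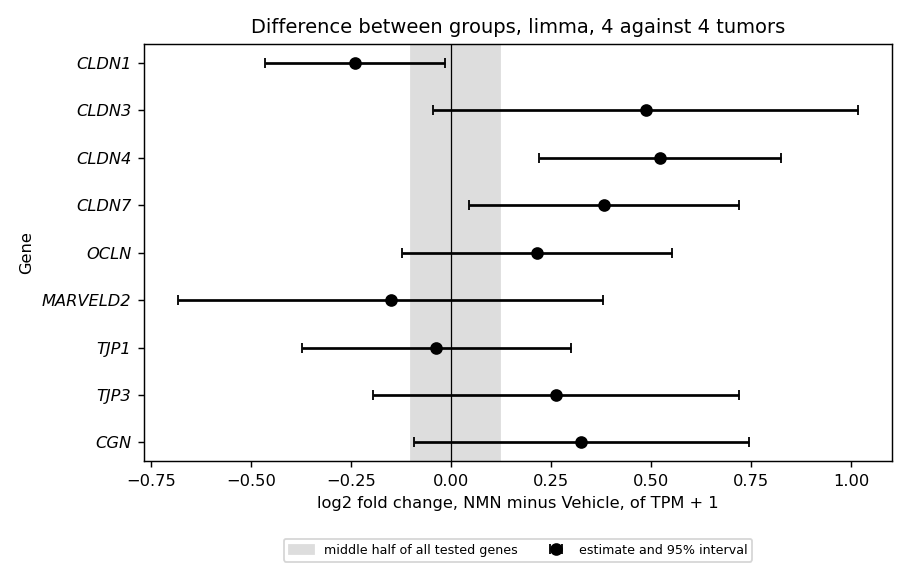
Log2 fold change (NMN minus Vehicle, of TPM + 1) of each gene with its 95% interval from limma, and a grey band for the middle 50% of all tested genes. CLDN4 at 0.52 and CLDN1 at -0.24 lie on opposite sides of the band, which runs from -0.10 to 0.12.

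Vehicle 4 was the lowest of the 8 tumors in 6 of the 9 genes, CLDN3, CLDN4, CLDN7, OCLN, TJP3 and CGN, and in 20.4% of all tested genes. NMN 3 was the highest in 4, CLDN4, CLDN7, TJP3 and CGN, and in 12.1% of all tested genes. CLDN1, MARVELD2 and TJP1 did not share this order. Of the 8 epithelial markers 5 were also lowest in Vehicle 4: the simple keratin genes KRT7, KRT8, KRT18 and KRT19, and EPCAM. The basal keratin genes KRT5 and KRT14 were highest there, at 6488 and 6953 TPM, against at most 4648 and 4123 TPM elsewhere, and CDH1, at 187.21 TPM, was second highest. KRT8 was at 878.65, 707.41, 908.93 and 840.6 TPM in NMN 1 to 4, against 541.65, 314.58, 537.4 and 265.34 TPM in Vehicle 1 to 4. Each NMN tumor was above each Vehicle tumor, as for CLDN4 and as in 2.08% of tested genes. KRT8 was the only 1 of the 8 epithelial markers with this order, and KRT7, KRT18, KRT19 and EPCAM overlapped. The log2 fold change of KRT8 was 1.07 ± 0.21 (limma adjusted p = 0.221). The part of keratin state in the tight junction values was not tested, and in whole tumors fewer cells of a type cannot be told apart from less RNA per cell.

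**Figure D4:**
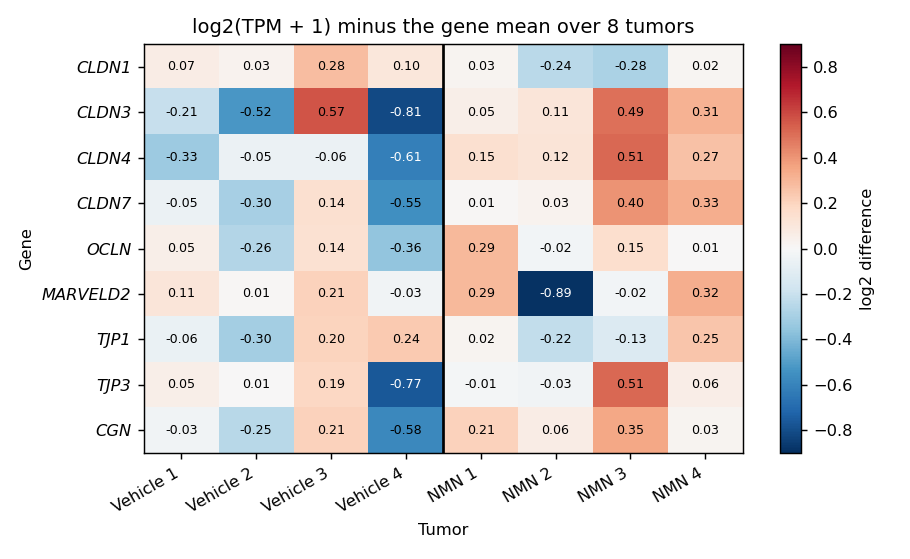
Heat map of log2(TPM + 1) minus the mean of each gene over the 8 tumors, with genes in rows and tumors in columns. The Vehicle 4 column is below 0 for 7 of the 9 genes, down to -0.81 for CLDN3, and above 0 for CLDN1 and TJP1.

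Across the 8 tumors 8 of the 36 pairs of these genes had a Pearson correlation of log2(TPM + 1) that passed an exact permutation test after Benjamini-Hochberg adjustment over the 36 pairs, all of them positive. By Spearman's rho 0 passed, and 0 passed with the group means removed and permutation within groups. How often pairs of other tested genes would pass was not computed, so 8 of 36 cannot be called particular to these genes. CLDN3 and CLDN7 had the highest correlation, r = 0.94 (exact permutation p = 7.4e-04, adjusted p = 0.0176) and rho = 0.93 (exact permutation p = 0.0022, adjusted p = 0.0804). With the group means removed r of this pair was 0.92, and without the 2 tumors farthest from the CLDN3 median it was 0.76. That was the highest such value of the 8 pairs. For each pair the 2 tumors left out were those farthest from the median of 1 gene, the first named (OCLN for MARVELD2 and OCLN). The value was 0.33 for TJP3 and CGN (r = 0.89 over all 8 tumors) and 0.41 for CLDN7 and TJP3 (0.86). For CLDN4 and CLDN7 (0.86) it was 0.53. It was 0.68 for CLDN3 and CGN (0.92), 0.65 for CLDN3 and TJP3 (0.81) and 0.63 for CLDN7 and CGN (0.89). Leaving out the extremes of 1 gene narrows its range and tends to lower r. A fall therefore does not show that a relation rests on 2 tumors. OCLN and CGN had r = 0.92 (exact permutation p = 0.0015, adjusted p = 0.0176) and rho = 0.88 (exact permutation p = 0.0072, adjusted p = 0.129), with r = 0.89 after removal of the group means and 0.67 without 2 tumors. The genome neighbours CLDN3 and CLDN4 had r = 0.77 (exact permutation p = 0.0244, adjusted p = 0.0731), rho = 0.57 (exact permutation p = 0.151, adjusted p = 0.389) and r = 0.59 without 2 tumors. For the neighbours MARVELD2 and OCLN r was 0.25 (exact permutation p = 0.542, adjusted p = 0.781), rho 0.50 (exact permutation p = 0.216, adjusted p = 0.410) and r without 2 tumors 0.51.

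Outside these 9, the genes most like CLDN4 over the 8 tumors by Pearson's r, as a description, were the serine protease gene PRSS22 (0.98), RARRES1, a retinoid-responsive gene (0.97), and CUEDC2 (0.97). For CLDN1 they were ZNF778 (0.98), UBXN2A (0.97) and the chloride channel gene ANO1 (0.95). Of 10798 genes with a mean of at least 5 TPM, 45 had r above 0.9 with CLDN4 and 29 with CLDN1, so single names carry little weight.

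**Figure D5:**
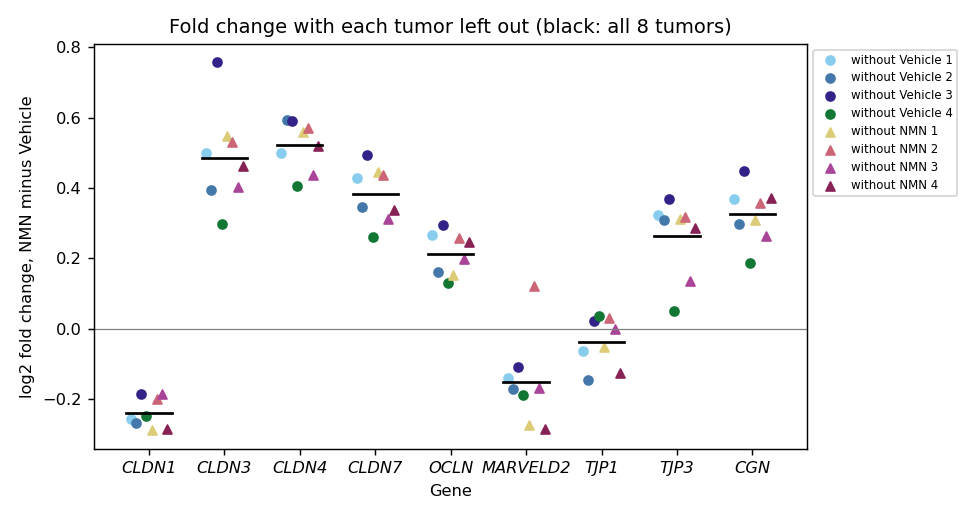
Log2 fold change (NMN minus Vehicle) of each gene with each tumor left out in turn (circles, Vehicle tumors; triangles, NMN tumors) and with all 8 tumors (black lines). CLDN4 stays between 0.41 and 0.59 and CLDN1 between -0.29 and -0.19, whereas TJP3 reaches 0.051 without Vehicle 4 and MARVELD2 and TJP1 cross 0.

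Other genes were taken from 6 lists. They cover claudins, membrane proteins, scaffold and plaque proteins, the adherens junction, transcription factors, and proteases, inhibitors and kinases. Transcription factors, proteases, inhibitors and kinases were listed as known to act on junction genes or proteins, not as parts of the junction. Of 77 tested genes 0 passed in limma, 50 were higher and 27 lower in mean in NMN tumors, and the median log2 fold change was 0.06. At an unadjusted p under 0.05 stood 12 of them, 10 higher and 2 lower, against 4.79% and 2.15% of all tested genes. The NMN and Vehicle tumors did not overlap in 5: CGNL1, PATJ, PARD6B and AFDN were above and ZEB2 below, against 2.08% and 0.966% of all tested genes. Of 19 other claudins in the table, 12 lay under the filter, with means of at most 0.80 TPM. These included CLDN2, which forms cation pores, at 0.186 TPM, and the endothelial claudin gene CLDN5 at 0.0863 TPM. Of the 7 tested, 5 were higher and 2 lower in mean, and the median of their log2 fold changes was 0.12. CLDN8 (0.68 ± 0.27, limma adjusted p = 0.629) and CLDN9 (0.61 ± 0.24, limma adjusted p = 0.624) had the largest of their log2 fold changes, and both were lowest in Vehicle 4 and highest in NMN 3.

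Of 9 tested other membrane proteins of the junction 4 were higher and 5 lower in mean, with a median of -0.02. The adhesion molecule gene F11R, at 193 ± 25.9 TPM in NMN and 203 ± 14.3 TPM in Vehicle tumors, and the tricellular receptor gene LSR, at 152 ± 22.4 and 153 ± 4.85 TPM (SD, n = 4), had log2 fold changes of -0.08 and -0.02. EPCAM, which stabilises CLDN7, had one of 0.43 ± 0.16 (limma adjusted p = 0.553). MARVELD3, the third MARVEL protein of the junction, was at 12.7 ± 2.66 TPM in NMN and 17.03 ± 1.997 TPM in Vehicle tumors (SD, n = 4), a log2 fold change of -0.42 ± 0.16 (limma adjusted p = 0.614).

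Of 24 tested other scaffold and plaque genes 15 were higher and 9 lower in mean, with a median of 0.06. Paracingulin (CGNL1) was at 7.77, 7.14, 10.48 and 9.36 TPM in NMN 1 to 4, against 6.76, 6.24, 7.01 and 4.58 TPM in Vehicle 1 to 4. Its groups did not overlap, and its log2 fold change was 0.44 ± 0.17 (limma adjusted p = 0.613). For the polarity gene PARD6B the log2 fold change was 0.31 ± 0.15 (limma adjusted p = 0.765). Of 12 adherens junction genes 8 were higher and 4 lower in mean (median 0.04). Among them the afadin gene AFDN had a log2 fold change of 0.38 ± 0.12 (limma adjusted p = 0.435) and the E-cadherin gene CDH1 one of -0.12 ± 0.12 (limma adjusted p = 0.938).

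Of 12 tested transcription factors known to act on junction genes 9 were higher and 3 lower in mean (median 0.15), and none passed in limma. ELF3, an epithelial ETS factor, was at 138, 238, 310 and 177 TPM in NMN 1 to 4, against 113, 137, 150 and 64.0 TPM in Vehicle 1 to 4, lowest in Vehicle 4 and highest in NMN 3 as CLDN4 was. The log2 fold change of ELF3 was 0.90 ± 0.28 (limma adjusted p = 0.426). ZEB2, a repressor of epithelial genes, was at 1.27, 1.11, 0.80 and 1.70 TPM in NMN 1 to 4, against 1.85, 1.97, 2.31 and 3.26 TPM in Vehicle 1 to 4, a log2 fold change of -0.59 ± 0.19 (limma adjusted p = 0.456). ZEB2 was low, at 1.78 TPM in mean, and is also in the mesenchymal marker list. The SNAI genes overlapped between the groups. SNAI1, at 2.33 TPM in mean, had a log2 fold change of 0.43 ± 0.22 (limma adjusted p = 0.780). SNAI2, at 43.5 TPM in mean, had one of -0.10 ± 0.16 (limma adjusted p = 0.959). ZEB1 and SNAI3 lay under the filter at 0.421 and 0.430 TPM, as did TWIST1 and TWIST2 at 0.616 and 0.781 TPM, so none of these was tested. ZEB1 was at 0.26 to 0.36 TPM in NMN and 0.37 to 0.61 TPM in Vehicle tumors. TWIST1 was at 0.18 to 0.49 TPM in NMN and 0.71 to 1.12 TPM in Vehicle tumors. Both so lay lower in every NMN tumor, as ZEB2 did, but at values near 0. TWIST2 went the other way in mean (1.07 TPM in NMN against 0.493 TPM in Vehicle tumors). The Grainyhead genes GRHL1 and GRHL2, activators of claudin genes, had log2 fold changes of 0.32 ± 0.12 and 0.05 ± 0.17 (limma adjusted p = 0.587 and 0.987). Of 13 tested proteases, inhibitors and kinases 9 were higher and 4 lower in mean (median 0.05), among them the matrilysin gene MMP7 with 1.62 ± 0.52 (limma adjusted p = 0.451).

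Epithelial markers were all present, with 8 of 8 tested and sums from 8406 to 11494 TPM in NMN and from 8890 to 15125 TPM in Vehicle tumors. KRT5 and KRT14 made up most of each sum. The sum was highest in Vehicle 4, although 5 of the 8 markers were lowest there. The sum of 15 skeletal muscle markers was 31.4 to 51.2 TPM in NMN 1 to 3, 700 TPM in NMN 4 and 473 to 2827 TPM in Vehicle tumors. Without NMN 4 the log2 fold change was 0.52 for CLDN4 and -0.29 for CLDN1. In that fit every NMN tumor was below every Vehicle tumor in muscle markers, so muscle content and treatment cannot be told apart. The part of muscle content in the values of CLDN4 and CLDN1 was not tested. The 10 endothelial markers summed to 10.4 to 12.4 TPM in NMN and 6.97 to 12.4 TPM in Vehicle tumors, with 7 of them under 1 TPM in mean and the defining gene CDH5 at most 0.18 TPM. The 8 fibroblast markers summed to 118 to 163 TPM in NMN 1 to 3, below every Vehicle tumor (188 to 285 TPM), and to 233 TPM in NMN 4. The 6 pericyte or smooth muscle markers summed to 90.1 to 105 TPM in NMN 1 to 3, also below every Vehicle tumor (132 to 156 TPM), and to 161 TPM in NMN 4. In mean 4 of the fibroblast and 3 of the pericyte or smooth muscle markers were under 1 TPM. COL1A1, COL1A2 and COL3A1 made up most of the fibroblast sum, and ACTA2 and TAGLN most of the other, so both sums rest on few genes. The part of these cell types in the junction values was not tested. In 7 of the 9 marker lists the sum in NMN 4 lay outside the range of NMN 1 to 3. It was below that range for the myeloid (50.1 TPM), adipocyte (16.0 TPM) and mesenchymal (177 TPM) lists. Any tumor of a small group often lies outside the range of the rest, so this count carries little weight. In NMN and Vehicle tumors the sums were 50.1 to 91.0 and 53.0 to 76.4 TPM for 7 myeloid markers and 16.0 to 217 and 10.9 to 100.0 TPM for 6 adipocyte markers. They were 5.30 to 7.89 and 6.55 to 7.92 TPM for 5 Schwann cell markers and 177 to 247 and 185 to 236 TPM for 7 mesenchymal markers. In the adipocyte list FABP4 alone was at 212.43 TPM in NMN 2, the tumor with the highest sum. The sources used here do not say how mouse reads were treated, so any value may include host transcripts that match human sequence.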

How the data were processed

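RNA was measured in 8 tumors, 4 per group. The TPM values per gene were made and deposited by the authors in 1 table, with the unit per the file headers. Per the submitters' processing notes the tools were HISAT2 2.1.0, Bowtie2 2.2.5 and RSEM 1.2.8 on GRCh38.p13, with no role given. TPM does not record depth, which is therefore unknown, and no value has a counting interval. Between 16451 and 16662 genes were above 0 per library.

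Genes with at least 1 TPM in at least 4 of 8 libraries were fitted on log2(TPM + 1) with limma 3.58.1 (R 4.3.3), a mean-variance trend and group as the only term, two-sided, with Benjamini-Hochberg adjustment at 0.05. Fold changes on this scale understate those of low genes. The fit was tested on simulated data. In 18 alternatives the pseudocount was 0.1 or 5, the filter was left out or set at 5 TPM, TPM was rescaled by median of ratios or quantiles, the trend was dropped, the fit made robust or weighted by library, the replicate number was a block, or 1 tumor was left out.

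The members, lists and tests were chosen with earlier results of these data known. Beside the members, genes named were up to 3 per list with the smallest unadjusted p, genes above 50 TPM in mean, CLDN2, CLDN5, F11R and LSR, and any gene needed to account for a list. Not all of those eligible are printed, and 1 gene is not reported here. The keratin genes, from the epithelial list, and PATJ, ZEB1, SNAI1, SNAI2, SNAI3, TWIST1 and TWIST2 were named after their values were seen. So were the marker genes COL1A1, COL1A2, COL3A1, ACTA2, TAGLN and FABP4. Marker lists cover skeletal muscle, endothelium, fibroblasts, pericytes or smooth muscle, myeloid cells, adipocytes, Schwann cells, epithelium and mesenchyme. Sequences are from RefSeq, where all 9 genes matched by symbol.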

Additional observations from a re-analysis of the deposited data

Results flagged for a closer look

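TJP3 in NMN 3, at 28.39 TPM, stood apart from the other NMN tumors, which lay between 19.13 and 20.40 TPM. It was the 1 tumor found among 18 groups of 4 values (9 genes in 2 groups) whose gap to its nearest neighbour took up more of the range than Dixon's 95% limit allows, and chance gives about 1 in 20 such groups.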

How the results depend on the processing

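Of the 9 genes 0 passed in limma under any of the 18 other settings, and 0 of the tested genes of the 6 lists did. CLDN1, CLDN3, CLDN4, CLDN7, OCLN and TJP3 kept the sign of their fold change in 18 of 18 settings and CGN in 17 of 17, since CGN lay under the filter at 5 TPM. The adjusted p of CLDN4 ran from 0.176 to 0.967 and its log2 fold change from 0.41 to 0.59. Over all genes the number called was 54 with library weights and 2 with the replicate block, and from 0 to 53 with 1 tumor left out: 53 without NMN 4, 1 without Vehicle 3 and 0 without each of the other 6. With 1 tumor left out MARVELD2 ran from -0.28 (without NMN 4) to 0.12 and reversed without NMN 2 (0.12). TJP1 ran from -0.14 (without Vehicle 2) to 0.036 and reversed without NMN 2 (0.030), Vehicle 3 (0.024) and Vehicle 4 (0.036). The median of the 9 ran from 0.13 (without Vehicle 4) to 0.37 (without Vehicle 3). With library weights the log2 fold change was 0.32 for CLDN3, 0.16 for TJP3 and -0.0043 for MARVELD2. With a pseudocount of 5 it was 0.15 for CGN and -0.087 for MARVELD2, and the median of the 9 was 0.16. Same-numbered tumors did not deviate together (correlations from -0.12 to 0.03). These values gave no sign of pairing by number but cannot exclude it. The replicate block left 0 of the 9 genes and 0 genes of the 6 lists called. Depth is unknown, so no counting error can be given for any of the 9.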
